A study of Mus musculus with 54 samples.

Results

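Splicing factor genes were followed in the livers of male mice exposed to the plasticizer di-isononyl phthalate (DINP). They were taken by symbol from the deposited expression table: names beginning with Snrpa to Snrpg, Snrnp, Sf3a, Sf3b, Srsf, Hnrnp or U2af, with names holding -ps left out. The pattern held 61 of 20162 table rows, and 59 of the 61 passed the filter on low values and were tested. Snrnp25, of the minor spliceosome, was above 0 in 25 of 54 mice and was not tested. Snrpert, annotated as a processed pseudogene, was above 0 in 3 mice and was not tested either. Srsf3-ps, excluded by its name, had a mean of 9.34, so that reads of Srsf3 and of this copy could have been divided between them.

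All groups consisted of wild-type male C57BL/6J mice that were put on a high-fat diet (HFD) at an age of 8 weeks, controls included. For 20 weeks 14 controls ate placebo gelatin pellets and the others DINP in pellets, at 1.5 (n = 13), 15 (n = 13) or 150 mg/kg bw/d (n = 14). RNA of the medial liver lobe was made into QuantSeq libraries, which read the 3′ end of polyadenylated RNA, 1 library for each mouse. Diet and DINP were given together, and no group without HFD was analysed here. By their name and their steps, the values are TPM, which relate reads of a gene to transcript length and library size, rounded and then scaled between mice (scaled TPM below). The table keeps no sequencing depth. Reads from 3′ ends do not grow with transcript length as TPM assumes, so that levels of different genes compare only roughly, and the reads do not show how any transcript was spliced.

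Introns are removed by the spliceosome, which assembles from small nuclear ribonucleoproteins (snRNPs) on each new transcript. U1 snRNP pairs with the 5′ splice site, the U2AF heterodimer reads the 3′ splice site, and U2 snRNP, helped by SF3A and SF3B, settles on the branch point before the U4/U6.U5 tri-snRNP joins. Serine/arginine-rich (SR) proteins and heterogeneous nuclear ribonucleoproteins (hnRNPs) bind exons and introns and shift which sites are used. In liver, as in other tissues, they take part in the choice between isoforms of metabolic genes.

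The promoters of 4 members are shown because 3 of them had the largest changes in either direction and Snrnp27 carries the sequence motif that was most common among the members. They come from RefSeq on GRCm38.p6 and run from 250 bases before to 50 after the start of the gene, 5′ to 3′ on the strand of the gene. Capitals mark CCGGAAG, the core recognised by ETS family factors, searched on both strands. Sf3a2 lies at chr10:80798485-80798784 (plus strand), Snrnp27 at chr6:86684442-86684741 (minus), U2af1 at chr17:31658715-31659014 (minus) and Snrpa1 at chr7:66060086-66060385 (plus). The last pair hold no match.
Sf3a2: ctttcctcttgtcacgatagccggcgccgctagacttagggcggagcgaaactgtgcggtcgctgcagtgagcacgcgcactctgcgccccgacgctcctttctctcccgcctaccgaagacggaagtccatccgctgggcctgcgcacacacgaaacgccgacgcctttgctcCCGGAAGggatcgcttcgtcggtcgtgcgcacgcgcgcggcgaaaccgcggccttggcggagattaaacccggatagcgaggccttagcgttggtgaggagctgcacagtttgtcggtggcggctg
Snrnp27: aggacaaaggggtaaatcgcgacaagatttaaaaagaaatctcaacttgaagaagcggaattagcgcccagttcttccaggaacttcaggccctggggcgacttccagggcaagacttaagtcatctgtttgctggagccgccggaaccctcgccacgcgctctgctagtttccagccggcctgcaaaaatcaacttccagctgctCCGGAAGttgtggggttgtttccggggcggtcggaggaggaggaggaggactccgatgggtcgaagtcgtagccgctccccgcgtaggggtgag
U2af1: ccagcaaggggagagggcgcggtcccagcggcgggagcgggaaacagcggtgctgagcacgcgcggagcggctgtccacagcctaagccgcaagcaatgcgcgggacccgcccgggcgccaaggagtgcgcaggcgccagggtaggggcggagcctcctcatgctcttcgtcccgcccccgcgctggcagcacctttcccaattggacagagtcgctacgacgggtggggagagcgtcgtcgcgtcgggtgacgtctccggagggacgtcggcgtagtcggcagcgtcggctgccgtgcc
Snrpa1: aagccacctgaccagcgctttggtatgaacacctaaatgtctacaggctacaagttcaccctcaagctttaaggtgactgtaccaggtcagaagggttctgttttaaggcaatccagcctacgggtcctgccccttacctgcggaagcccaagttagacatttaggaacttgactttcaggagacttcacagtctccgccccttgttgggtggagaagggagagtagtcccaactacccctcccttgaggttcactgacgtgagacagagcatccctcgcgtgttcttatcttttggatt

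RefSeq promoters were found for 52 of the 61 members. The ETS core occurred in 18 of the 52 (34.6%), in 9.12% of 27025 RefSeq promoters and in 19.5% of the 8370 promoters of genes tested in these livers. Other motifs were closer to their background, as the nuclear receptor half-site AGGTCA was in 17.3% of member promoters and 16% of all, the E-box CACGTG in 9.62% and 7.24%, and the YY1 core AAGATGGC in 3.85% and 2.88%. In promoters of the tested genes these were 13%, 10.4% and 5.04%. None of these strings contains another. Member promoters held a median of 24 CG dinucleotides, against 21 over the tested genes. Of the members whose RNA differed at 15 mg/kg bw/d (described next), the core was in 3 of the 10 matched promoters of those that fell, Sf3a2, Sf3b2 and Snrnp27, and in none of the 5 of those that rose. A match of letters is not evidence of a bound factor.

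Some libraries stood apart before any gene was considered. Over all tested rows, the median correlation of a mouse with the others of its group was below 0.94 in 5 mice, control 8 and the 15 mg/kg mice 5, 6, 7 and 8 (numbered as in the labels, whose order is not explained in the sources used here). The lowest was 0.908, and the other 49 mice lay between 0.945 and 0.967. Transcript GC content also moved with the middle dose, as the correlation of a mouse's deviations with GC was below 0 in 10 of 13 mice at 15 mg/kg, against 3 of 14 controls, 4 of 13 at 1.5 and 6 of 14 at 150 mg/kg. Counts are therefore also given without the 5 libraries and with the GC trend removed, both chosen after the data were seen.

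In control livers the members differed widely in level. Hnrnpm, an hnRNP with roles in splice site choice, had the highest control mean (385 scaled TPM), followed by Srsf5 (196), Srsf2 (176), Sf3b6 (162) and Snrnp70 (155). The order of Srsf5 to Snrnp70 is not firm, since their control ranges overlapped. At the other end, Snrnp40 of the U5 snRNP averaged 1.88 and Snrnp35 2.82, where 1 step of the rounded values is a large part of the level. Members of a single complex differed in level, as Sf3a1 averaged 3.44 and Sf3b6 of the same U2-bound complex was at the level given above. Control spread was lowest for Sf3b1 (coefficient of variation 6.03%) and Hnrnpm (6.75%), and was 25.3% for Snrpd3.

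Against control, members were called at the middle dose and not at the low or the high dose. A member was called when its adjusted p in limma, corrected over all 11431 tested rows, was under 0.05. At 15 mg/kg bw/d 11 members fell (18.6% of 59, against 6.61% of all rows) and 5 rose (8.47%, against 7.57%), and 43 were not called. The share of all rows depended on the filter. In either direction it was 14.2%, and 22.7% of the 6932 rows left with a minimum mean of 5, where 17 members were called. Of the tested members, Hnrnph2, Sf3a1, Snrnp35 and Snrnp40 fell below that filter. The excess of the members over all rows is therefore smaller among genes of higher level, though still present. At 1.5 mg/kg bw/d limma called 0 members in either direction, where 0.674% of all rows were higher and 0.525% lower. At 150 mg/kg bw/d it also called 0, against 1.49% higher and 0.682% lower. At each of these doses 11 members (18.6%) had an unadjusted p under 0.05, against 12.3% of all rows at 1.5 and 14% at 150 mg/kg. A rank-sum permutation test called 2 members (3.39%) at each, near the 2.25% and 3.86% of all rows that it called. They were Hnrnpa2b1 and U2af1 at 1.5 and Snrpd1 and U2af1 at 150 mg/kg, all lower. The median log2 fold change over the 59 members was -0.06, -0.03 and -0.04 at 1.5, 15 and 150 mg/kg, and that of all rows was between -0.01 and 0.00 in each of these comparisons. In bulk liver RNA, fewer cells of a type and less RNA per cell cannot be told apart.

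**Figure D1:**
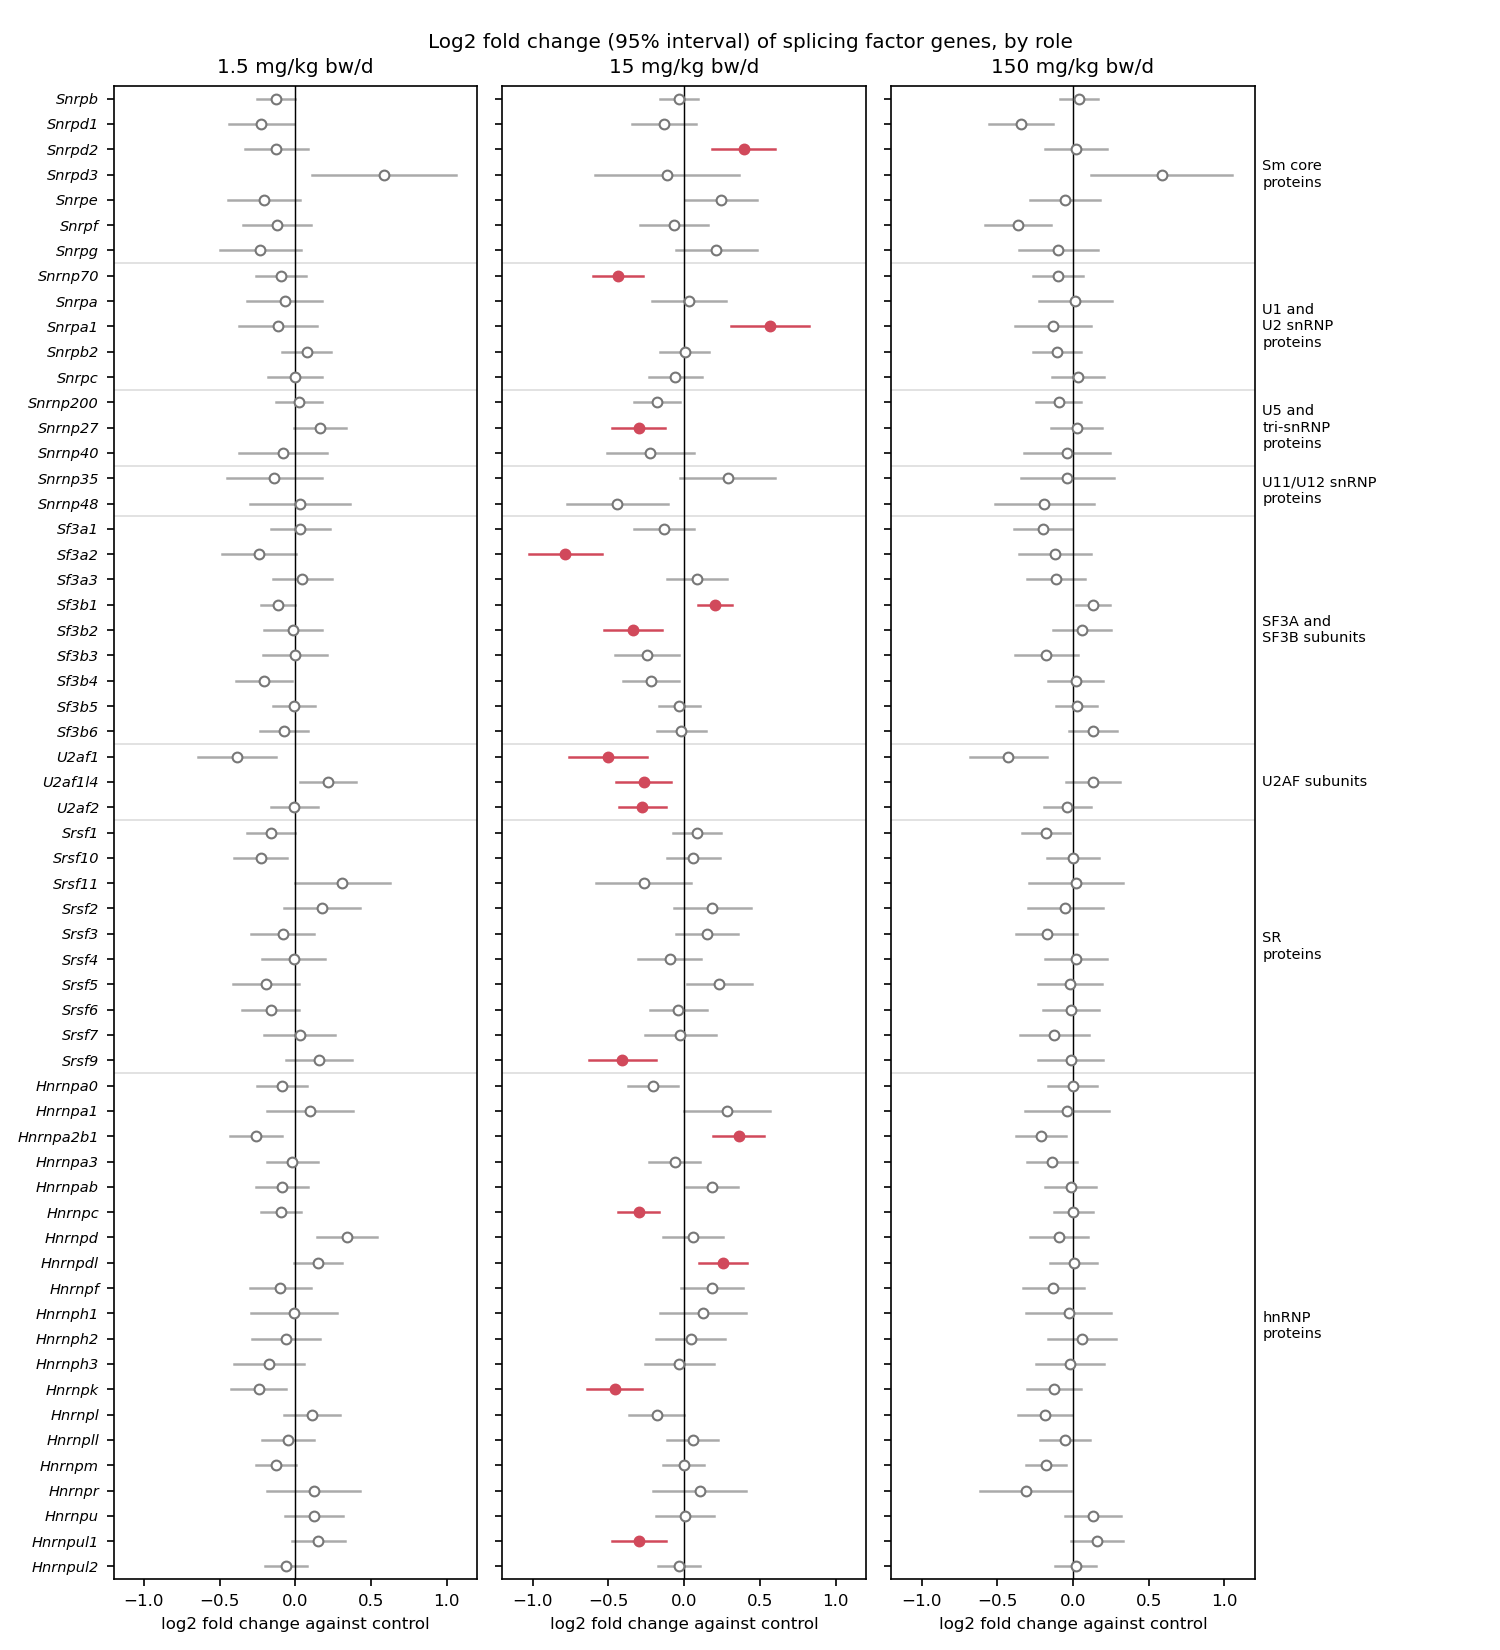
Log2 fold change against control (x axis) with its 95% confidence interval for each of the 59 tested members (y axis, grouped by role), 1 panel for each dose of DINP in mg/kg bw/d. Filled circles passed an adjusted p under 0.05, which 16 members did at 15 mg/kg and none at 1.5 or 150 mg/kg; open circles did not.

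Fewer of the 16 calls at 15 mg/kg passed without the libraries that stood apart. With those 5 left out, which also left fewer mice, 4 of the 16 were still called, namely Sf3a2, Snrnp70, Hnrnpk and Snrpa1. These 4 were 6.78% of the members, near the 5.63% of all rows that were called, against 27.1% and 14.2% with every mouse. The other 12 kept their direction, with adjusted p from 0.0669 to 0.554. Except for Hnrnpk (-0.46 to -0.51) and U2af1l4 (-0.27 to -0.29), the fold changes were also smaller. For 9 of the 16 the log2 fold change shrank by over 1.5 times, most of all for Hnrnpul1, and 8 of these 9 were no longer called. Each such value is given beside the gene. With the GC trend removed 12 of the 16 remained, the exceptions being Sf3b1, Sf3b2, Hnrnpdl and U2af1l4. A rank-sum permutation test with every mouse called 8 of the 16. It did not call Sf3b2, U2af1l4, Snrpd2, Snrnp27, Srsf9, Hnrnpul1, Hnrnpa2b1 or Hnrnpdl. What part the 5 libraries and base composition had in these differences was not tested.

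The largest change among the members was in SF3A. Sf3a2, a subunit of the SF3A complex that helps U2 snRNP onto the branch point, ranged from 5.20 to 11.7 (median 9.96) scaled TPM in controls and from 2.92 to 8.14 (median 5.12) at 15 mg/kg bw/d. Values this low lie only a few steps of the rounded scale apart, so that the size of the change is coarse. All 13 mice of that dose were below the control median and 7 below every control, although the groups overlapped (log2 fold change -0.78 ± 0.12, adjusted p = 1.13e-05; ± is the SE throughout). The medians at 1.5 and 150 mg/kg, 8.09 and 8.93, lay between, and neither dose was called (-0.24 ± 0.12, adjusted p = 0.414 and -0.12 ± 0.12, adjusted p = 0.712). The 15 mg/kg mice differed from both other doses (15 against 1.5 mg/kg, -0.54 ± 0.12, adjusted p = 0.000985; 150 against 15 mg/kg, 0.67 ± 0.12, adjusted p = 6.66e-05). The gene lies on chromosome 10 and overlaps Plekhj1 on the opposite strand. Whether counting used the strand is not given in the sources used here, so that reads of the pair may be mixed.

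Other SF3 subunits were less uniform. Sf3b2, which contacts RNA near the branch site, fell from a control range of 47.8 to 89.0 (median 74.9) to one of 39.5 to 87.5 (median 64.2) at 15 mg/kg (log2 fold change -0.34 ± 0.10, adjusted p = 0.0128). Of the 13 mice, 5 were below all controls and 0 above, so that the groups overlapped widely, and without the 5 libraries it was -0.13 (adjusted p = 0.459). The gene overlaps AC125059.3 on the opposite strand. Sf3b1, the large SF3B subunit that clamps the branch point helix, rose from a control range of 17.1 to 20.8 (median 18.8) to one of 18.1 to 28.8 (median 21.4) (log2 fold change 0.20 ± 0.06, adjusted p = 0.0101), with 9 of 13 mice above every control. This was the smallest called change, and neither Sf3b1 (adjusted p = 0.0613) nor Sf3b2 (adjusted p = 0.0579) was called once the GC trend was removed. Sf3b1 was also not called when each mouse was scaled to the same total, nor without the 5 libraries (0.14, adjusted p = 0.159). Sf3b6, the most abundant member of the complex, had medians of 161, 148, 167 and 178 in control and at 1.5, 15 and 150 mg/kg, without a call. The remaining 5 subunits, Sf3a1, Sf3a3, Sf3b3, Sf3b4 and Sf3b5, were not called at any dose against control.

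All 3 U2AF genes fell at 15 mg/kg bw/d. U2af1, the small subunit that reads the AG at the 3′ splice site, ranged from 92.5 to 175 (median 126) in controls, 74.3 to 120.0 (median 94.4) at 1.5, 45.2 to 140.1 (median 84.5) at 15 and 58.96 to 140.1 (median 90.6) at 150 mg/kg bw/d. Mice below the control median numbered 13 of 13, 11 of 13 and 12 of 14, so that this gene was low at every dose, although only the middle one was called (log2 fold change -0.50 ± 0.13, adjusted p = 0.00506). The values at 1.5 mg/kg (-0.39 ± 0.13, adjusted p = 0.145) and at 150 mg/kg (-0.43 ± 0.13, adjusted p = 0.0562) did not pass limma's threshold but did in the rank-sum permutation test. Without the 5 libraries U2af1 was called at 1.5 and 150 mg/kg and not at 15 mg/kg, where it was -0.27 (adjusted p = 0.164). No contrast between doses was called for U2af1 (15 against 1.5 mg/kg, -0.12 ± 0.13, adjusted p = 0.573; 150 against 15 mg/kg, 0.08 ± 0.13, adjusted p = 0.732). U2af2, the large subunit that binds the polypyrimidine tract, fell from a control range of 36.2 to 51.6 (median 44.1) to one of 24.1 to 46.7 (median 35.2) (log2 fold change -0.28 ± 0.08, adjusted p = 0.0125), with 7 of 13 mice below all controls. With the 5 libraries left out, it was -0.16 (adjusted p = 0.221). U2af1l4, a paralogue of the small subunit, fell from a control range of 32.9 to 47.5 (median 41.7) to one of 23.9 to 51.3 (median 32.1) (log2 fold change -0.27 ± 0.09, adjusted p = 0.0389), with 7 mice below and 1 above the controls. Its call was the least firm of the 16, as dropping a single mouse ended it for 16 of 27 mice (adjusted p reached 0.0864 without 15 mg/kg mouse 4). Without the 5 libraries U2af1l4 was -0.29 (adjusted p = 0.0743). At 1.5 mg/kg it stood at a median of 45.3, and the step from 1.5 to 15 mg/kg was larger than that from control (-0.48 ± 0.09, adjusted p = 0.000141). It overlaps Psenen on the opposite strand and Gm49396 on the same strand.

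**Figure D2:**
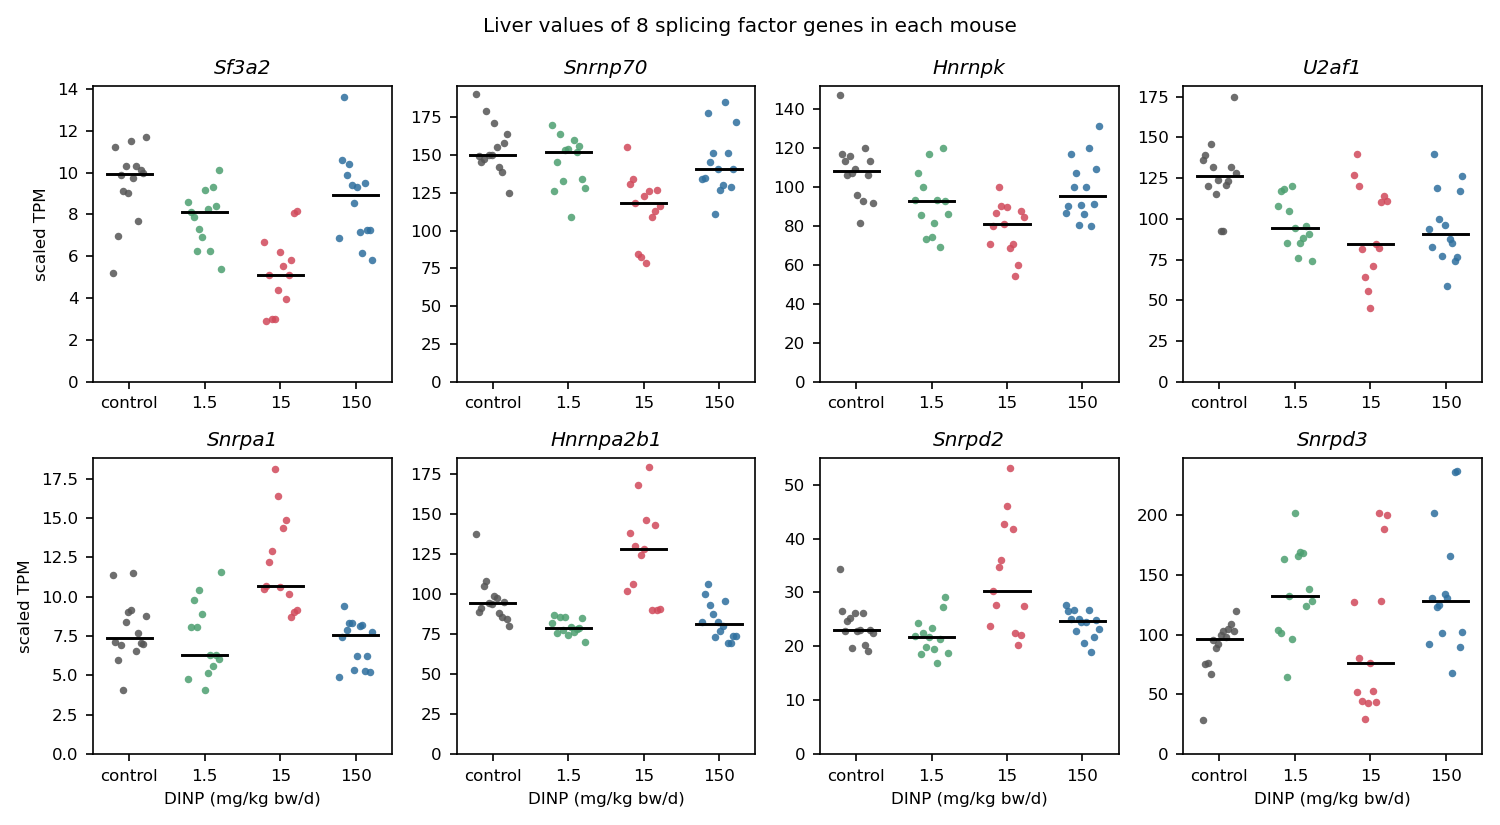
Scaled TPM (y axis, starting at 0) of 8 members in each mouse (1 point a mouse, spread sideways for sight only) in controls and at each DINP dose (x axis), with black lines at the medians. By median, Sf3a2, Snrnp70 and Hnrnpk are lowest at 15 mg/kg, U2af1 is below control at all doses, and Snrpa1, Hnrnpa2b1 and Snrpd2 are highest at 15 mg/kg, and Snrpd3 is split into high and low mice at 15 mg/kg.

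Of the U1 and U2 snRNP proteins, 1 fell and 1 rose. Snrnp70, the U1-70K protein that links U1 RNA to neighbouring factors, ranged from 125 to 190.1 (median 149.7) in controls and from 78.5 to 155 (median 118) at 15 mg/kg, with 8 of 13 mice below all controls (log2 fold change -0.44 ± 0.08, adjusted p = 0.000192). In the fit without the 5 libraries, it was -0.29 (adjusted p = 0.0187). Medians at 1.5 and 150 mg/kg were 152 and 141. The gene overlaps Gm22478 on the opposite strand. Snrpa1, the A′ protein of U2 snRNP, showed the largest called rise, from a control range of 4.05 to 11.5 (median 7.41) to one of 8.70 to 18.1 (median 10.7) (log2 fold change 0.56 ± 0.13, adjusted p = 0.00167). Each of the 13 mice was above the control median and 6 were above every control. At 1.5 and 150 mg/kg the medians were 6.30 and 7.60, and the direct contrasts with 15 mg/kg were both called (0.68 ± 0.13, adjusted p = 0.000141 for 15 against 1.5 mg/kg and -0.70 ± 0.13, adjusted p = 7.43e-05 for 150 against 15 mg/kg). Snrpa1 overlaps the predicted gene Gm45213 on its own strand. Snrpa and Snrpc of U1 and Snrpb2 of U2 had log2 fold changes between -0.10 and 0.07 at every dose against control and were not called.

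The 7 Sm core genes, whose proteins form the ring around the snRNAs, did not move together. Snrpd2 rose from a control range of 19.1 to 34.3 (median 23.0) to one of 20.3 to 53.1 (median 30.2) at 15 mg/kg (log2 fold change 0.39 ± 0.10, adjusted p = 0.00677), and 6 of 13 mice exceeded all controls. With the 5 libraries left out, it was 0.18 (adjusted p = 0.295), and the rank-sum permutation test with every mouse did not call it. The most abundant, Snrpe, had medians of 135, 115, 152 and 127 in control and with increasing dose and was called only between 15 and 1.5 mg/kg (0.45 ± 0.12, adjusted p = 0.0051). Snrpd1 (-0.34 ± 0.10, adjusted p = 0.0638) and Snrpf (-0.36 ± 0.11, adjusted p = 0.0636) had their lowest medians at 150 mg/kg, 28.6 and 26.0, against 35.7 and 33.4 in controls, and missed the threshold. Both were called once each mouse was scaled to the same total, or once the GC trend was removed.

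Snrpd3 stood out by its spread and not by a call against control. Values were 28.1 to 120.2 (median 96.7) in controls, 64.4 to 202 (median 132) at 1.5, 29.1 to 202 (median 76.2) at 15 and 67.8 to 237 (median 128) at 150 mg/kg. At the low dose 9 of 13 mice and at the high dose 9 of 14 lay above every control, yet neither was called (0.59 ± 0.24, adjusted p = 0.263 and 0.59 ± 0.23, adjusted p = 0.207), with the largest SE among the members. At 15 mg/kg 5 mice were above every control and the other 8 were below the control median, so that this group was split in its values. The contrasts of 15 against 1.5 mg/kg (-0.70 ± 0.24, adjusted p = 0.0319) and of 150 against 15 mg/kg (0.70 ± 0.24, adjusted p = 0.0292) were called. Without the 5 libraries neither was. The gene overlaps Gucd1 on the opposite strand.

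The tri-snRNP and minor spliceosome genes gave 1 call against control. Snrnp27, the 27 kDa protein of the tri-snRNP, fell from a control range of 63.4 to 124 (median 102) to one of 64.1 to 108 (median 77.3) (log2 fold change -0.30 ± 0.09, adjusted p = 0.013). Of the 13 mice, 11 were below the control median but none was below all controls. Without the 5 libraries Snrnp27 was -0.26 (adjusted p = 0.093), and the rank-sum permutation test with every mouse did not call it. Snrnp200, the helicase that unwinds U4 from U6, and Snrnp40 were not called (-0.18 ± 0.08, adjusted p = 0.112 and -0.22 ± 0.14, adjusted p = 0.32). Snrnp48, a protein of the U11/U12 particle that serves the minor class of introns, ranged from 61.3 to 111 (median 75.2) in controls and from 15.4 to 98.6 (median 64.7) at 15 mg/kg, and missed the threshold (-0.44 ± 0.17, adjusted p = 0.0629). It was called at 15 mg/kg with the GC trend removed.

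Among 10 SR protein genes only Srsf9 was called against control. It fell from a control range of 32.6 to 54.3 (median 41.2) to one of 15.4 to 43.9 (median 31.4) at 15 mg/kg (log2 fold change -0.41 ± 0.11, adjusted p = 0.0077), with 7 of 13 mice below all controls and 4 above the control median. Without the 5 libraries it was -0.15 (adjusted p = 0.387), and array quality weights and the rank-sum permutation test also ended the call. Srsf9, a short SR protein that acts on exon inclusion, had its highest median, 48.0, at 1.5 mg/kg, and the contrast of 15 against 1.5 mg/kg was called (-0.56 ± 0.11, adjusted p = 0.000198). Srsf5, the most abundant, had medians of 188, 178, 210.1 and 194 in control and with increasing dose (0.23 ± 0.11, adjusted p = 0.15 at 15 mg/kg). Srsf2, Srsf3, Srsf4, Srsf6 and Srsf7 were not called against control at any dose, nor were Srsf1, Srsf10 and Srsf11.

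Of 20 hnRNP genes, 3 fell and 2 rose at 15 mg/kg bw/d. Hnrnpk, which binds C-rich RNA and DNA, ranged from 81.3 to 147 (median 108) in controls and from 54.2 to 101 (median 81.1) at 15 mg/kg, where all 13 mice were below the control median and 7 below every control (log2 fold change -0.46 ± 0.09, adjusted p = 0.00027). Medians at the low and high doses were 92.7 and 95.4, between the 2 groups. Hnrnpk overlaps Rmi1 on the opposite strand, and Mir7-1 on its own strand. Hnrnpc, which coats U-rich tracts of new transcripts, fell from a control range of 79.6 to 119 (median 97.0) to one of 62.0 to 93.4 (median 78.3) (log2 fold change -0.30 ± 0.07, adjusted p = 0.00125), again with all 13 mice below the control median. In the fit without the 5 libraries, it was -0.19 (adjusted p = 0.101). Hnrnpul1, an hnRNP U-like protein, fell from a control range of 22.8 to 33.1 (median 26.7) to one of 14.3 to 32.7 (median 24.6) (log2 fold change -0.30 ± 0.09, adjusted p = 0.0162), with 6 mice below every control. Its call was among those that depended most on the fit: without the 5 libraries it was -0.10 (adjusted p = 0.554), and it was lost in 6 of 16 alternatives. As many or more ended the calls of Sf3b1 (6), Sf3b2 (7), Hnrnpdl (7) and U2af1l4 (8).

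Hnrnpa2b1, which binds UAG-containing RNA and takes part in RNA transport and splicing, had the smallest p between doses. It ranged from 80.2 to 137 (median 94.0) in controls and from 89.6 to 179 (median 128) at 15 mg/kg (log2 fold change 0.36 ± 0.09, adjusted p = 0.0026), with 5 of 13 mice above every control. Without the 5 libraries this rise was 0.28 (adjusted p = 0.0669), and the rank-sum permutation test with every mouse did not call it. At 1.5 mg/kg values were 69.8 to 87.0 (median 78.7) and at 150 mg/kg 69.4 to 106 (median 80.9). All 13 mice of the low dose were below the control median and every 15 mg/kg mouse was above every 1.5 mg/kg mouse. The contrasts were 0.62 ± 0.09, adjusted p = 1.44e-06 (15 against 1.5 mg/kg) and -0.57 ± 0.09, adjusted p = 2.63e-06 (150 against 15 mg/kg). Against control the low dose did not pass in limma (-0.26 ± 0.09, adjusted p = 0.132). Hnrnpdl, a relative of the AU-rich element binding protein Hnrnpd, rose from a control range of 21.2 to 35.7 (median 28.5) to one of 25.7 to 46.4 (median 32.7) (log2 fold change 0.26 ± 0.08, adjusted p = 0.021), a call that was lost when 15 mg/kg mouse 8 was left out (adjusted p = 0.0567). In the fit without the 5 libraries, it was 0.13 (adjusted p = 0.383). Hnrnpm, the most abundant member, had medians of 375, 358, 383 and 338 in control and with increasing dose and was not called against control.

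The dose groups were then compared with each other in the same fit. Between 15 and 1.5 mg/kg bw/d, 12 members were higher at 15 mg/kg (background 10.9% of rows, members 20.3%) and 14 lower (10.5%, members 23.7%). Between 150 and 15 mg/kg, 11 were higher at 150 mg/kg (9.85%, members 18.6%) and 8 lower (10.1%, members 13.6%). Between 150 and 1.5 mg/kg only 1 was higher (2.55%, members 1.69%) and 2 lower (2.06%, members 3.39%). With each mouse scaled to the same total the split became 7 higher and 16 lower in the first of these contrasts and 10 higher and 13 lower in the second. With a minimum mean of 5, 26 and 22 members were called in the first and second, where 31.3% and 30.4% of all rows were. Those shares of all rows were still below the shares of the members. These contrasts use the same mice as those against control and are not independent of them. Without the 5 libraries 12, 10 and 3 members were called in the 3 contrasts, which is 20.3%, 16.9% and 5.08% of the members against 9.33%, 10.3% and 6.77% of all rows. With the GC trend removed the counts were 25, 16 and 2, where 20.2%, 19.3% and 4.53% of all rows were called.

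The members with the smallest p between 15 and 1.5 mg/kg, besides Hnrnpa2b1, Snrpa1, Sf3a2, Srsf9 and U2af1l4 given above, were Sf3b1 (0.32 ± 0.06, adjusted p = 6.69e-05), Snrnp27 (-0.46 ± 0.09, adjusted p = 0.000121), Hnrnpul1 (-0.45 ± 0.09, adjusted p = 0.00023), Snrpd2 (0.52 ± 0.11, adjusted p = 0.000301) and Snrnp70 (-0.34 ± 0.08, adjusted p = 0.00223). Between 150 and 15 mg/kg, besides Hnrnpa2b1, Sf3a2 and Snrpa1, they were Hnrnpul1 (0.46 ± 0.09, adjusted p = 0.00015), Hnrnpc (0.30 ± 0.07, adjusted p = 0.000732), U2af1l4 (0.40 ± 0.09, adjusted p = 0.00112) and Snrnp70 (0.34 ± 0.08, adjusted p = 0.00217). Sf3b2 (0.40 ± 0.10, adjusted p = 0.00226), Snrnp27 (0.33 ± 0.09, adjusted p = 0.00501) and Hnrnpk (0.33 ± 0.09, adjusted p = 0.0053) completed them. Each of these 7 was higher at 150 mg/kg than at 15 mg/kg. Without the 5 libraries, Snrnp70 was no longer called in either contrast (-0.20, adjusted p = 0.0864, for 15 against 1.5 mg/kg and 0.20, adjusted p = 0.086, for 150 against 15 mg/kg), nor was Sf3b2 between 150 and 15 mg/kg (0.19, adjusted p = 0.176). Between 15 and 1.5 mg/kg, Srsf9 (-0.34), Hnrnpul1 (-0.25) and Snrpd2 (0.31) shrank by over 1.5 times and were still called, as did Hnrnpul1 between 150 and 15 mg/kg (0.26).

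Other calls between 15 and 1.5 mg/kg spread over the roles. Srsf5, Snrpe, Srsf10, Snrpg, Hnrnpab, Srsf1, Hnrnpf and Snrnp35 were also higher at 15 mg/kg, and Srsf11, U2af2, Sf3b2, Hnrnpl, Hnrnpc, Snrpd3, Hnrnpd and Snrnp48 also lower. Srsf11 had the widest step of these besides Snrpd3, with medians of 133 at 1.5 and 88.5 at 15 mg/kg and 114 in controls (-0.58 ± 0.16, adjusted p = 0.00672). Between 150 and 15 mg/kg, Srsf9, U2af2 and Snrpd3 were also higher at 150 mg/kg, and Snrpd2, Srsf1, Hnrnpdl, Srsf3, Hnrnpf and Hnrnpr also lower. Srsf1, the founding SR protein, had medians of 8.68 in controls and 7.85, 8.95 and 7.26 with increasing dose, highest at 15 mg/kg.

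The 3 members that differed between 150 and 1.5 mg/kg were Hnrnpd, Sf3b1 and Hnrnpl. Hnrnpd, known as AUF1 for its binding of AU-rich elements, ranged from 27.7 to 62.8 (median 50.4) at 1.5 and from 27.2 to 41.8 (median 36.1) at 150 mg/kg (-0.43 ± 0.10, adjusted p = 0.00451), with controls at 26.0 to 48.9 (median 37.8). Its 1.5 mg/kg value missed the threshold against control (0.34 ± 0.10, adjusted p = 0.0638). Sf3b1 was higher at 150 mg/kg (0.25 ± 0.06, adjusted p = 0.00509). Hnrnpl, which binds CA repeats, was lower (-0.30 ± 0.09, adjusted p = 0.0443), a call that ended when a single mouse was dropped for 19 of 27 mice.

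**Figure D3:**
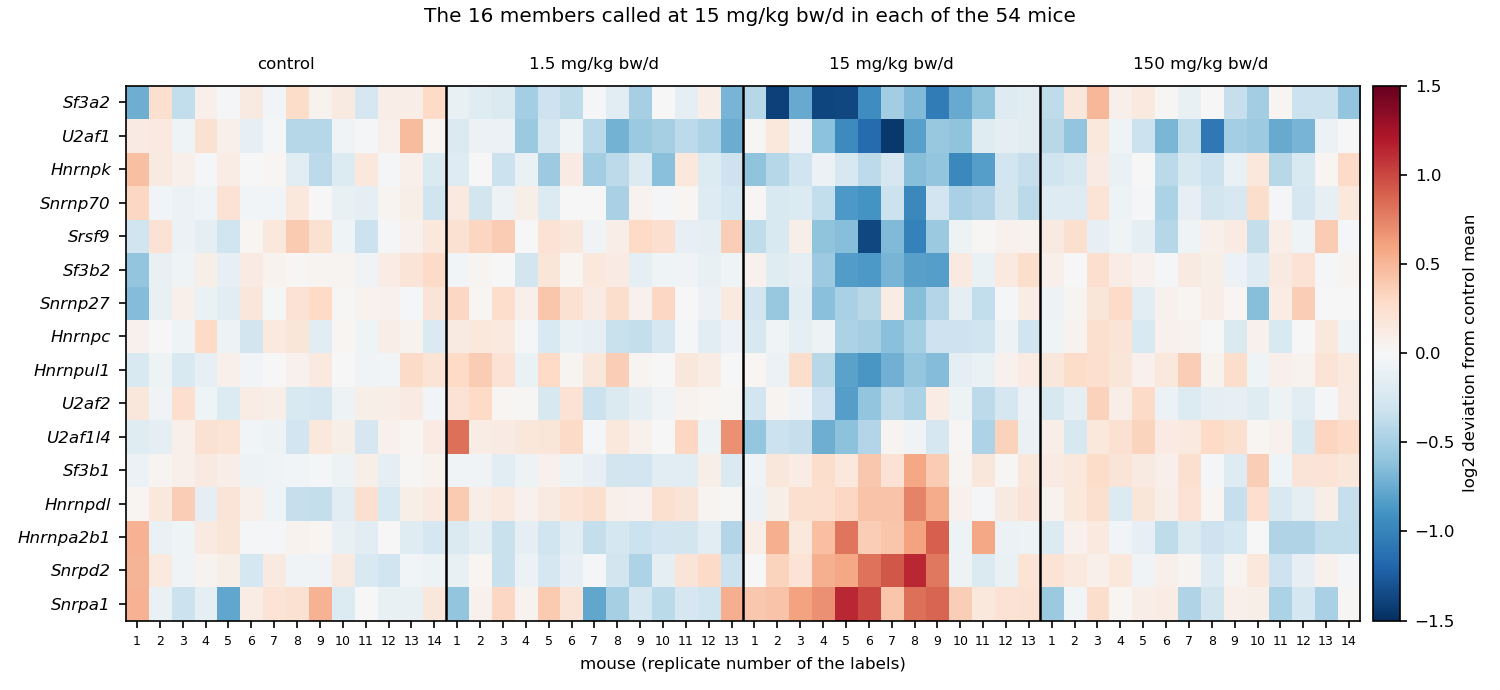
Log2 deviation from the control mean (colour, red higher and blue lower, limits at -1.5 and 1.5) of the 16 members called at 15 mg/kg bw/d (rows, ordered by fold change) in each of the 54 mice (columns, by dose group and label number). For most genes colours are strongest in 15 mg/kg mice 4 to 9, which had 10 to 14 of the 16 genes outside the control range, and are weaker in the other 7 mice of that group.

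Mice of the middle dose were not alike. Of the 16 called genes, a 15 mg/kg mouse had between 0 and 14 outside the control range in the called direction, with a median of 7. Of the 13 mice, 6 had 10 or more, among them the 4 libraries of low correlation, and the other 7 mice had at most 7. The 6 mice have consecutive numbers in the labels, 4 to 9, and whether the numbers follow an order of handling or a batch was not tested. These genes were chosen by the mean of the same mice, so that the numbers describe the spread within the group and do not support the calls. The same count was 0 to 3 in 1.5 mg/kg mice and 0 to 4 in 150 mg/kg mice.

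Members that rose and fell at 15 mg/kg differed in the base composition of their transcripts. The 5 members that rose had a median transcript GC content of 44.1% and the 11 that fell 54%, and over all rows tested the corresponding medians were 47.6% and 54%. Across the 59 members, the correlation of log2 fold change with GC was -0.33 (Pearson; Spearman -0.358), and across the 10979 rows with a GC value it was -0.174 (Spearman -0.19), both across genes that share the same mice. In the GC class over 55%, 3 of 9 members were called lower, where 12.1% of all rows were. More member calls lay between 50 and 55% than in any other class, as 5 of 14 were called lower (7.09% of all rows) and 2 higher (6.69%). Between 45 and 50%, 2 of 14 were lower (4.06%) and 0 higher (9.78%). In the class under 45%, 3 of 22 members were called higher (10.6%) and 1 lower (3.72%). Snrpa1 and Snrpd2, at 50.4% and 52.3% GC, rose, and Hnrnpc, Hnrnpk and Snrnp27, at 43%, 45.9% and 45.8%, fell, against this trend.

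**Figure D4:**
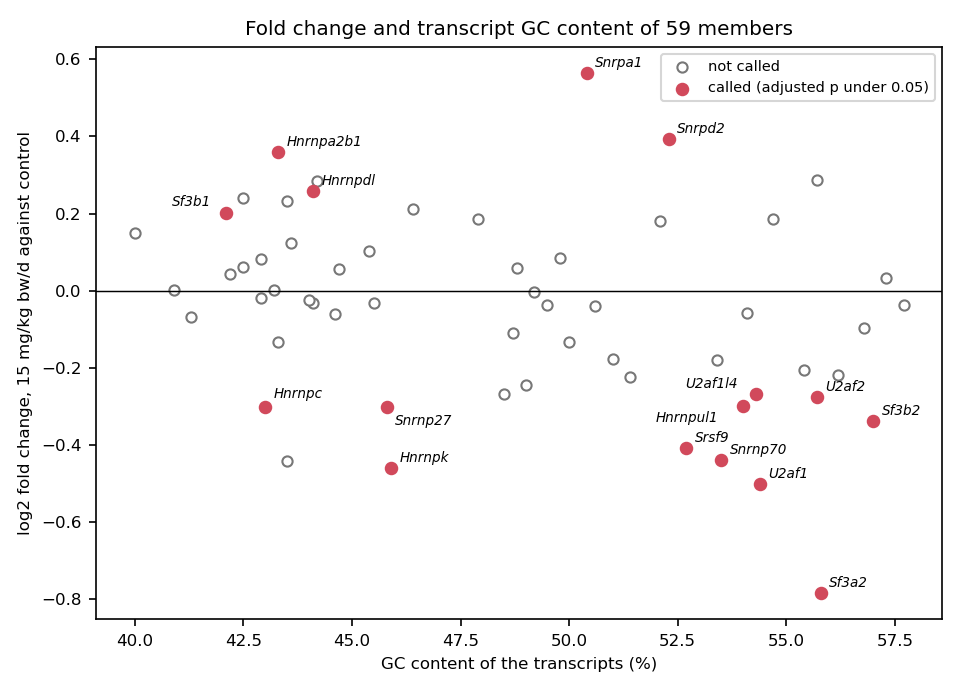
Log2 fold change at 15 mg/kg bw/d against control (y axis) and median GC content in percent of the gene's annotated transcripts (x axis) for the 59 tested members, 1 point a gene; filled points are the 16 called members, with names. Points at low GC lie mostly around or above 0 and those at high GC mostly below, with Snrpa1 and Snrpd2 as called exceptions above and Hnrnpc, Hnrnpk and Snrnp27 below.

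Genes that work with the members were read from further lists, with log2 fold changes against control in parentheses. Of 57 other spliceosome components 7 rose (12.3%, against 7.57% of all rows) and 5 fell (8.77%, against 6.61%) at 15 mg/kg, 2 fell at 1.5 and 1 at 150 mg/kg. Nothing particular to this list is read from shares this near the background. Cwc15 (0.29 ± 0.06, adjusted p = 0.000401), Cdc5l (0.25 ± 0.07, adjusted p = 0.00549) and Ddx46 (0.36 ± 0.10, adjusted p = 0.00805) rose, as did Txnl4a of the U5 snRNP (0.46 ± 0.12, adjusted p = 0.0087). Phf5a, a further SF3B subunit, fell (-0.33 ± 0.09, adjusted p = 0.00787). Zrsr2, a relative of U2AF1 that reads 3′ splice sites of minor introns, was lower at 1.5 mg/kg (-0.57 ± 0.12, adjusted p = 0.0056) and at 150 mg/kg (-0.41 ± 0.12, adjusted p = 0.0367) but was not called at 15 mg/kg, where it was higher than at 1.5 mg/kg (0.64 ± 0.12, adjusted p = 9.7e-05). Dhx15, a helicase that releases the lariat, was lower at 1.5 mg/kg (-0.24 ± 0.06, adjusted p = 0.0188).

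Of 50 other splicing regulators tested, 5 rose and 5 fell at 15 mg/kg (10% each way, again near the shares of all rows), and 1 fell at each other dose. Rbm25 (0.44 ± 0.08, adjusted p = 0.000274), Matr3 (0.47 ± 0.11, adjusted p = 0.00257) and Rbm39 (0.27 ± 0.07, adjusted p = 0.00879) rose, while Rbm8a of the exon junction complex (-0.43 ± 0.10, adjusted p = 0.0029) and Rbm10 (-0.39 ± 0.11, adjusted p = 0.0123) fell. Rbm39 was lower at 1.5 mg/kg (-0.30 ± 0.07, adjusted p = 0.0268), and Pcbp1, which binds C-rich RNA as Hnrnpk does, was lower at 150 mg/kg (-0.40 ± 0.07, adjusted p = 0.000502). Of 8 kinases of SR proteins Clk4 rose (0.31 ± 0.10, adjusted p = 0.0315) and Prpf4b fell (-0.33 ± 0.11, adjusted p = 0.0264) at 15 mg/kg. Among 13 tested genes of snRNP assembly and import Strap rose (0.25 ± 0.06, adjusted p = 0.00486) and Prmt5, which methylates Sm proteins, fell (-0.31 ± 0.11, adjusted p = 0.043) at that dose. Neither list had a call against control at the other doses. Of 3 tested nuclear-retained RNAs Malat1 was lower at 1.5 mg/kg (-0.53 ± 0.12, adjusted p = 0.0178), and none was called at 15 or 150 mg/kg.

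Markers of the main cell types of the liver were called about as often as other genes, 3 of 22 hepatocyte, macrophage and endothelial markers at 15 mg/kg (13.6%, against 14.2% of all rows). All 6 hepatocyte markers were above 0 in every mouse, Alb included (mean 19800 scaled TPM), and their summed level was 23610 to 47250 (median 38330) in controls and 29740 to 50810 (median 40240) at 15 mg/kg. At that dose Ttr of hepatocytes was higher (0.42 ± 0.13, adjusted p = 0.0231), and Csf1r of macrophages (-0.60 ± 0.17, adjusted p = 0.0114) and Pecam1 of endothelium (-0.52 ± 0.11, adjusted p = 0.000867) were lower, 1 of 6, 1 of 10 and 1 of 6 tested markers. The summed Kupffer cell and macrophage markers were 147.9 to 453.3 (median 194.8) in controls and 124.2 to 342.1 (median 163.4) at 15 mg/kg. The summed endothelial markers were 75.9 to 103.6 (median 91.5) and 60.2 to 102.3 (median 81.5), so that both medians were lower at that dose while the ranges overlapped. No marker of T, NK and B cells, neutrophils, stellate cells and fibroblasts, cholangiocytes, red blood cells or cycling cells was called against control at any dose, with 3, 2, 5, 3, 5 and 2 of them tested. The B cell marker Cd79a was at 0 in 49 of 54 mice and the proliferation marker Mki67 in 49. Cfd, the only adipocyte marker tested, was higher at 150 mg/kg (2.07 ± 0.44, adjusted p = 0.00335), while Lep was at 0 in 53 mice and Plin1 in 51. The part of cell composition in the splicing factor differences was not tested.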

How the data were processed

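Liver RNA of 54 mice, 1 QuantSeq 3′ library each, was analysed. Per the labels and the study's methods, nf-core/rnaseq with its STAR, Salmon and RSEM steps was run against GRCm38. The annotation release is not given in the sources used here. As read from their steps and sums, the deposited values are a signal, TPM that the authors rounded to whole numbers and divided by a size factor of each sample. In every sample they are whole multiples of 1 step (tolerance 0.01), and the whole numbers sum to 948342 to 980641. They are not reads, depth is unknown, no count test applies, and the planned branch for scaled values was followed.

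Rows with a mean of at least 1 (11431 of 20162) were fitted in R 4.3.3 with limma 3.58.1 (lmFit, contrasts.fit, eBayes with trend) on log2(value + 1), all 4 groups in 1 fit, with Benjamini-Hochberg adjustment over all rows. Fold changes are on that scale, which understates changes of low genes. Scripts were tested on simulated data. Groups came from the labels, and the p-values of limma set differences of group means against the spread between mice.

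Members and gene lists (other spliceosome components, splicing regulators, kinases of SR proteins, snRNP assembly, nuclear-retained RNAs, cell type markers) were chosen with earlier results of these data known. Named were called members (at most 25 a dose, 10 a contrast between doses), the most abundant and the most changed member of each role, and at most 5 called genes of a list. Further members are named with their values where a count needed them, chosen after their values were seen. Positions and GC content (median over the transcripts of a gene) are from GENCODE M21, promoters from RefSeq (GRCm38.p6). Alternatives were another pseudocount, filter, scaling, weighting, block, test and threshold, and leaving out mice.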

Additional observations from a re-analysis of the deposited data

How the results depend on the processing

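Removing the GC trend and leaving out the 5 libraries were chosen after seeing the data. The counts of called members against control were 0, 16 and 0 at 1.5, 15 and 150 mg/kg. At 15 mg/kg (27.1% of members, 14.2% of all rows) the rank-sum permutation test called 8 (13.6%, all rows 7.28%), a log2 fold change beyond 0.5 left 3 (5.08%, all rows 3.72%, namely Sf3a2, Snrpa1 and U2af1), leaving out the 5 libraries of low correlation left 4 (6.78%, all rows 5.63%), and removing the GC trend together with the replicate block left 10 (16.9%, all rows 10.9%). Array quality weights left 11 (all rows 9.95%), only the 2 groups compared left 12 (all rows 9.35%), and a minimum mean of 5 gave 17 (all rows 22.7%). At 1.5 mg/kg the count was 1 with a minimum mean of 5, and 2 with only the 2 groups compared, with array quality weights, with the rank-sum permutation test or without the 5 libraries, where 2.03% to 2.60% of all rows were called. At 150 mg/kg it was 1 with the replicate block, with the GC trend removed and the replicate block, with only the 2 groups compared or without the 5 libraries, 2 with a minimum mean of 5, the rank-sum permutation test or the GC trend removed, 3 with quantile normalization or array quality weights, and 5 with each mouse scaled to the same total, where 1.86% to 4.27% of all rows were called. The 5 members called at 150 mg/kg with each mouse scaled to the same total were all lower, where 3.04% of all rows were called in either direction. That scaling moved the median of all rows to -0.04 at 15 mg/kg and -0.09 at 150 mg/kg.

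Of 15 against 1.5 mg/kg the count of 26 became 17 with only the 2 groups compared, 13 with array quality weights, 12 with the rank-sum permutation test or without the 5 libraries, and 7 beyond 0.5, against 15.5%, 13.2%, 11.7%, 9.33% and 7.15% of all rows. Of 150 against 15 mg/kg the count of 19 became 10 with the rank-sum permutation test or without the 5 libraries, and 4 beyond 0.5, against 12.4%, 10.3% and 6.73% of all rows. It was 13 with only the 2 groups compared and 15 with array quality weights, against 14.8% and 14.4% of all rows. Of 150 against 1.5 mg/kg the count of 3 became 0 beyond 0.5. No setting reversed the sign of a called member among those checked. These were all calls against control and at most the 10 of smallest p in each contrast between doses. Signs of the further members named in those contrasts were not checked.

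Leaving out 1 mouse gave 0 to 1, 15 to 18 and 0 to 2 members against control, and 20 to 27, 16 to 22 and 2 to 4 between doses. A member was called at 1.5 mg/kg without control 14 or 1.5 mg/kg mouse 4 or 10, and at 150 mg/kg without control 1, 3, 8, 9 or 14 or 150 mg/kg mouse 3, 4, 9, 13 or 14.

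The replicate numbers showed no pairing of the mice on average. Over 79 pairs of samples with 1 number, deviations from the group mean had a mean correlation of -0.0025 (-0.359 to 0.243). The correlation was above 0.1 in 12.7% of pairs. Such a mean cannot show whether mice with some of the numbers were handled together. With the replicate block 0, 15 and 1 members were called against control and 23, 18 and 3 between doses. DESeq2 was not run, since the values are not reads. Median-ratio rescaling left every count as it was and tests little, because the values already carry such a scaling. Depth, unknown here, limits genes of a few scaled TPM such as Snrnp40 and Snrnp35, and to a lesser degree Sf3a2 and Snrpa1.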
